A study of Sus scrofa with 72 samples.

Results

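Interferon-induced genes are the genes that a cell switches on when an interferon binds to its receptors. A list of 35 of them was followed here through the adipogenic culture of pig synovial mesenchymal stem cells. The members were chosen by gene symbol, and each is given by the probe set of that platform symbol with the highest mean over all arrays. Of the 35 genes, 31 had such a probe set, out of 13664 genes named on the array. HERC5, IRF7, IFI44L and SAMD9 carried none under those symbols and were not analysed here. Only probe sets with an SD above 0.25 over the 72 arrays and a value over the array's median in at least 8 of them were tested, and the chosen probe set passed this filter for 27 of the 31 members. Those of the other 4 did not pass. PARP9 (means of 1.67 to 2.01 log2 intensity over media and days) and IFIT2 (2.25 to 3.34) were read near or below the background controls. ISG20 (4.48 to 4.79) and IFIT5 (8.18 to 8.57) varied too little, with an SD of 0.228 and 0.227, although 2 other probe sets of IFIT5 passed the filter.

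The cells came from the adipose synovium (FP) and the fibrous synovium (FS) of pigs of 2 breeds, Angeln Saddleback (AS) and the German Landrace (DL), and for each breed and tissue 1 pool of passaged cells from 3 male piglets was used. They were grown in complete culture medium (CCM, high-glucose medium with foetal bovine serum) or in adipogenic induction medium (AIM, a commercial adipogenesis kit), and sampled at the start in CCM (day 0) and in both media after 1, 4, 7 and 14 days. Each of the 36 groups of breed, tissue, medium and day held 2 separate cultures of its pool, each on 1 Affymetrix Snowball array. The p-values therefore rest on how repeated cultures of 4 pools vary and say nothing of the variation among animals, and a breed cannot be told apart from the pool that stands for it. Levels are log2 intensities, and a difference of 1 is a doubling. Differences were averaged with equal weight over the 4 pools, fitted in limma over all groups, and passed at an adjusted p under 0.01 within a comparison over 18335 probe sets.

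Type I interferons act through the receptor chains IFNAR1 and IFNAR2, the kinases JAK1 and TYK2, and factors that include STAT2 and IRF9 and bind the promoters of most genes on the list. Interferon-gamma strongly induces IRF1 and GBP1. Many of the induced proteins sense or block viral RNA, and several of them also feed back on the pathway. Uninfected stromal cells can keep a basal level of them. The roles given below are those known from human and mouse.

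Several arrays were set aside or stand apart. In 2 pairs of arrays each member was more like the groups of its partner than those of its own label, namely replicate 2 of AS FP day 7 in AIM and in CCM, and replicate 2 of DL FP day 0 and of DL FS day 1 in CCM. After the mean of each probe set was taken off, their median correlation with arrays that share tissue, medium and day was -0.50, -0.53, 0.34 and 0.22 as labelled and 0.58, 0.76, 0.83 and 0.67 in the place of the partner, against 0.45 to 0.81 for the 68 other arrays. These 4 were left out, so that each set of one medium and day held 7 or 8 arrays and 4 groups rest on 1 array. In the retained AS FS AIM day 4 replicate 2, the mean of the 27 tested members was 6.74, while the other 7 arrays of AIM day 4 lay between 5.79 and 6.15. Results that depend on that array are given with and without it. The 69 background control probe sets averaged 3.13 to 3.67 per array. Of 11 stromal markers on the array, 10 were above the array median in all 9 sets, and of 8 fat cell markers the mean level lay between 4.04 and 6.47 in CCM and between 4.81 and 10.1 in AIM. The mean level of 10 macrophage markers lay between 3.89 and 4.36 in CCM and between 3.93 and 4.28 in AIM, that of 11 lymphocyte markers between 3.96 and 4.13 and between 4.00 and 4.12, that of 4 dendritic cell markers between 4.67 and 4.98 and between 4.52 and 4.64, and that of 8 endothelial markers between 4.07 and 4.28 and between 3.87 and 4.11, where the array medians were 3.95 to 4.12. All 9 tested stromal and all 7 tested fat cell markers passed between the media on at least 1 day, while 34.2% of all tested probe sets passed on none. The stromal THY1 was lower in AIM by 0.75, 1.53, 2.12 and 2.20 on the 4 days. DCN was higher by 0.71 on day 1 and lower by 0.84 and 1.06 on days 7 and 14. Single markers of the other cell types passed too. The endothelial PECAM1 was lower in AIM by 2.09, 1.75 and 2.11 on days 1, 4 and 14 and passed on day 7 too, and TCF4, of the dendritic cell list, was lower by 0.42, 1.78, 1.75 and 1.33 on the 4 days. The endothelial EGFL7 was higher in AIM by 0.40 on day 4, and the macrophage marker CD14 by 0.96 on day 14. None of the 6 tested lymphocyte markers passed between the media. Markers also passed in the early steps. From day 0 to day 1 the lymphocyte CD79A fell by 0.75 in CCM and 0.54 in AIM, and CD14 by 0.44 and 0.50. The stromal PDGFRA fell by 1.33 and 1.02, while the stromal ITGB1 rose by 0.54 and 0.82. By day 4 CD14 rose by 0.62 and 0.72 and PDGFRA by 1.53 and 0.87, while ITGB1 fell by 0.52 and 1.20. No other tested macrophage or lymphocyte marker passed in these steps. Above the array median in all 9 sets were 5 of the macrophage, 4 of the lymphocyte, 4 of the endothelial and 2 of the dendritic cell markers. Below it in all 9 sets were 4 of the macrophage, 4 of the lymphocyte, 2 of the endothelial and 2 of the dendritic cell markers. Among those below was PTPRC, the pan-leukocyte gene, at 1.60 to 1.99. The part of these cells in the results was not tested, nor was that of the stromal and fat cell markers, which differ between the media. In bulk cultures, fewer cells of a type and less RNA per cell cannot be told apart.

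Averaged over the 27 tested members, the level was 6.10 on day 0, lay below this on day 1 in both media, and was back at or above it on day 4 in both. On days 1, 4, 7 and 14 it was 5.52, 6.45, 6.29 and 6.44 in CCM and 5.15, 6.11, 5.78 and 5.79 in AIM. These means are a description, with no test. The AIM arrays of day 1 (4.98 to 5.29) and day 14 (5.62 to 5.99) lay wholly below the CCM arrays of the same days (5.42 to 5.67 and 6.09 to 6.85), as did those of day 7, and on day 4 only the 1 array that stands apart reached into the CCM range. The members did not all follow this mean. Over the 36 group means the correlation of a member with the mean of the other members ran from 0.15 for OASL and 0.31 for PARP14 to 0.94 for MX1 and 0.96 for IFIT1, with a median of 0.77. The groups share pools and the array normalization.

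**Figure D1:**
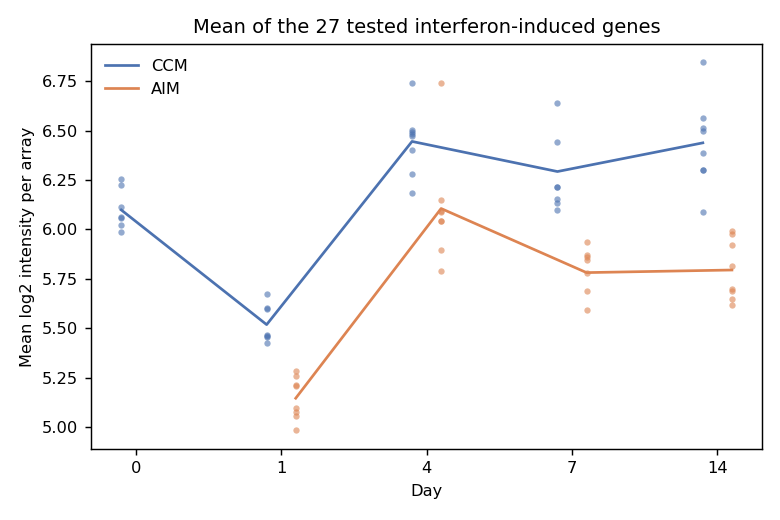
Mean log2 intensity of the 27 tested interferon-induced genes on each of the 68 arrays (points), by day and medium, with lines through the means over the 4 pools. Both media are lowest on day 1, at 5.52 in CCM and 5.15 in AIM, and AIM is below CCM on each of the 4 days.

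The largest range belonged to IFIT1, which binds viral RNA that lacks the host's cap methylation. Its lowest, median and highest arrays read 5.07, 5.62 and 6.59 on day 0. In CCM they read 3.01, 3.17 and 4.99 (day 1), 6.03, 6.21 and 7.22 (day 4), 5.71, 5.94 and 6.95 (day 7) and 5.74, 6.33 and 6.86 (day 14). In AIM they read 1.64, 2.64 and 3.51 (day 1), 4.08, 5.31 and 6.80 (day 4), 3.56, 4.72 and 4.92 (day 7) and 3.19, 4.08 and 5.25 (day 14). The day 1 arrays of both media were thus below all day 0 arrays. The media overlapped on days 1 and 4 and were apart on days 7 and 14.

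GBP1, a guanylate-binding GTPase that attacks the compartments of intracellular pathogens, had the second widest range and another course. On day 0 it was read at 5.21, 5.97 and 6.79. In CCM it then stood at 6.14, 6.62 and 7.57 (day 1), 5.99, 6.49 and 6.94 (day 4), 5.65, 6.11 and 6.39 (day 7) and 6.18, 6.62 and 7.08 (day 14). In AIM it was at 3.21, 3.90 and 5.18 (day 1), 3.65, 4.26 and 5.34 (day 4), 3.71, 4.46 and 5.28 (day 7) and 3.17, 3.90 and 5.20 (day 14). On every day each AIM array lay below each CCM array, and no drop on day 1 was seen in CCM.

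DDX58, which encodes the viral RNA sensor RIG-I, parted the media on day 1 alone. It was at 7.99, 8.37 and 8.91 on day 0, and in CCM at 7.24, 7.55 and 8.01 (day 1), 8.47, 8.82 and 9.26 (day 4), 8.12, 8.28 and 9.40 (day 7) and 8.02, 8.51 and 9.12 (day 14). In AIM it was at 6.26, 6.60 and 6.85 (day 1), 8.51, 9.00 and 9.99 (day 4), 8.12, 8.55 and 8.81 (day 7) and 7.76, 8.20 and 8.59 (day 14). On day 1 the AIM arrays lay below all CCM arrays, and on the later days the media overlapped.

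**Figure D2:**
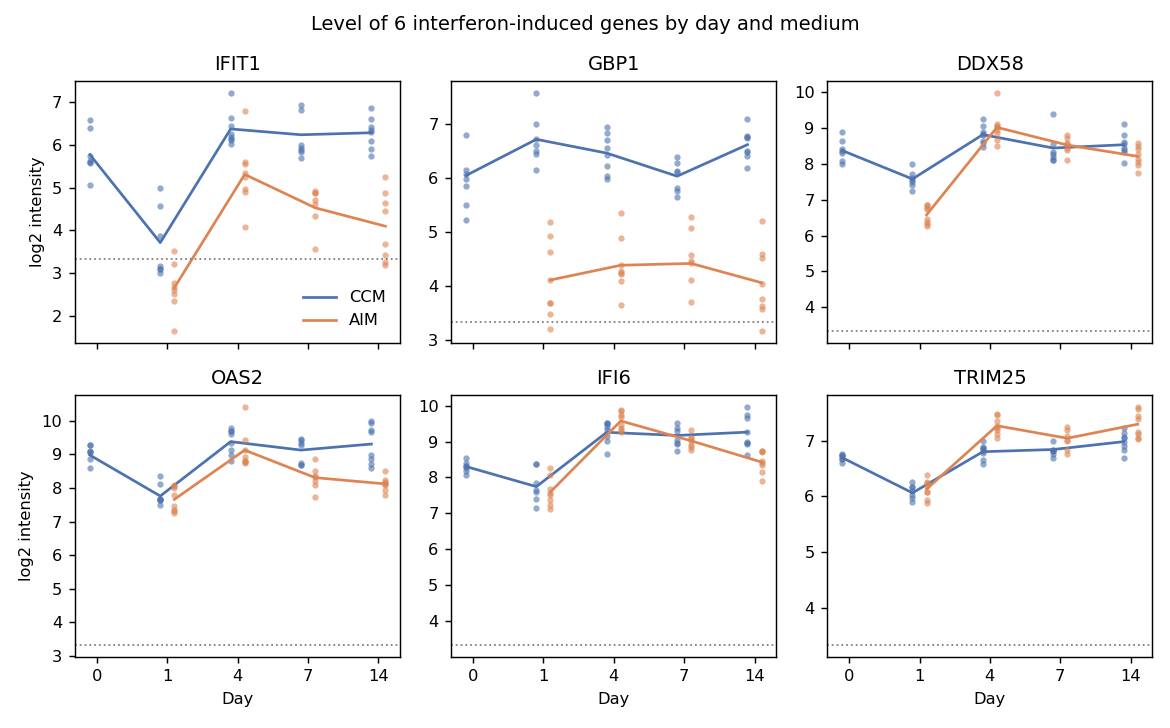
Log2 intensity of IFIT1, GBP1, DDX58, OAS2, IFI6 and TRIM25 on each array (points) by day, with lines through the means over the 4 pools and a dotted line at the mean of the background controls. IFIT1 falls to the background level on day 1 in AIM (mean 2.66), and GBP1 stays low in AIM from day 1 (4.12) to day 14 (4.07).

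The first day of culture was compared with day 0. In CCM, 16 of the 27 members had fallen by day 1 and none had risen, where 15.6% of all tested probe sets were lower and 16.1% higher. In AIM, 20 members were lower and none higher, against 21.2% and 16.8% of all tested probe sets. The median difference of the members was -0.48 in CCM and -0.89 in AIM, while that of all tested probe sets was -0.01 and -0.02. Both comparisons use the same 7 arrays of day 0. Leaving out 1 culture line at a time, 12 of the 16 and 18 of the 20 calls held in each fit that could be made.

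Several antiviral effectors fell in both media, while BST2, OAS1 and OASL passed in neither. IFIT1 fell by 2.06 in CCM (standard error 0.34, adjusted p = 4.86e-06) and by 3.12 in AIM (0.32, adjusted p = 2.61e-10) in limma. Its AIM mean of 2.66 lay under the background controls, and with these as the floor the drop in AIM was at least 2.44. The dynamin-like GTPases MX1 and MX2, which trap viral nucleocapsids, fell by 1.11 and 1.24 in CCM and by 1.40 and 1.42 in AIM. OAS2, a synthetase of the oligoadenylates that activate RNase L, fell by 1.21 and 1.32. IFIT3, a partner of IFIT1, was below the background controls on day 1 in both media (means of 3.18 and 3.31), and measured from these it fell by at least 1.06 and 0.97. CMPK2, a mitochondrial nucleotide kinase, fell by 0.90 in CCM and by 1.27 in AIM, and its chromosomal neighbour RSAD2, the radical enzyme viperin, by 0.91 and 0.99.

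Among the sensors, DDX58 fell by 0.79 (standard error 0.18, adjusted p = 0.000401) in CCM and by 1.80 (0.17, adjusted p = 2.48e-11) in AIM, and DHX58, a helicase that modulates both other helicases, by 0.45 and 0.41. IRF9, the DNA-binding part of the interferon complex, fell by 0.91 in CCM and by 0.83 in AIM. Its partner STAT2 fell by 0.42 (adjusted p = 4.24e-05) in CCM, and in AIM its difference was -0.15 (adjusted p = 0.105). TRIM25, a ubiquitin ligase that activates RIG-I, fell by 0.63 and 0.57.

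Another group passed on the first day in AIM. There GBP1 fell by 1.93 (standard error 0.26, adjusted p = 1.21e-07), IRF1, a transcription factor that interferon induces, by 1.55 (0.18, adjusted p = 2.82e-09), XAF1, a partner of the caspase inhibitor XIAP, by 1.04, the sensor IFIH1 (MDA5) by 1.02 and IFI35 by 0.89. In CCM their differences were 0.67, -0.38, -0.25, -0.25 and -0.04, and none of these passed. The other tested probe set of GBP1 did pass there, in the upward direction. DTX3L, a ubiquitin ligase, fell by 1.66 in AIM and by 0.48 in CCM. Its AIM mean of 3.34 was close to the background controls (3.33), which limits how large a drop could be read.

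By day 4 the members were higher again. In CCM 22 of 27 were higher on day 4 than on day 1 and none was lower, and in AIM 19 were higher and none lower. Of all tested probe sets, 17.9% were higher in CCM and 20.4% in AIM, and 19.2% and 28.4% were lower. The median difference was 0.78 in CCM and 0.85 in AIM, against 0.02 and -0.01 over all tested probe sets. These comparisons share no array, and 18 members passed in both, which is 18 of the 22 and 18 of the 19, while 8.57% of all tested probe sets passed upward in both. They do share the day 1 arrays with the comparisons against day 0, so a fall and a return are not independent. With 1 culture line left out, 20 of the 22 and 17 of the 19 calls held in each fit that could be made.

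IFIT1 rose by 2.66 in CCM (standard error 0.32, adjusted p = 8.38e-09) and by 2.66 in AIM (0.30, adjusted p = 1.16e-09) in limma, the latter at least 1.98 when measured from the background controls. DDX58 rose by 1.23 in CCM and by 2.45 in AIM, and IFI44, a cytoplasmic protein of uncertain function, by 1.68 (0.14, adjusted p = 9.74e-13) and 2.07 (0.13, adjusted p = 2.1e-16). IFI6, a small membrane protein that opposes cell death, rose by 1.51 and 1.98, OAS2 by 1.61 and 1.47, and MX1 by 1.55 and 1.56. Measured from the background controls, the rise of IFIT3 was at least 1.98 in CCM and 1.59 in AIM. Transcripts of the ISG15 system rose as well. ISG15, a ubiquitin-like modifier, rose by 0.82 and 1.00, USP18, the protease that removes it and restrains the receptor, by 0.63 and 1.23, and TRIM25 by 0.74 and 1.14. EIF2AK2, the RNA-activated kinase PKR, rose by 0.84 and 1.06 after no passing difference on the first day. MX2 rose by 1.44 in CCM and by 0.85 in AIM.

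Not all members took part. From day 1 to day 4 in AIM, GBP1 (0.27), IRF1 (-0.06), XAF1 (0.19), IFI35 (0.10), IRF9 (0.28) and RSAD2 (0.44) did not pass, so that those of them that had fallen on day 1 showed no passing return. OASL, a synthetase-like protein without the enzyme's activity, passed in none of these steps. Its means ran from 3.55 to 3.76 over the 9 sets, close to the background controls.

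**Figure D3:**
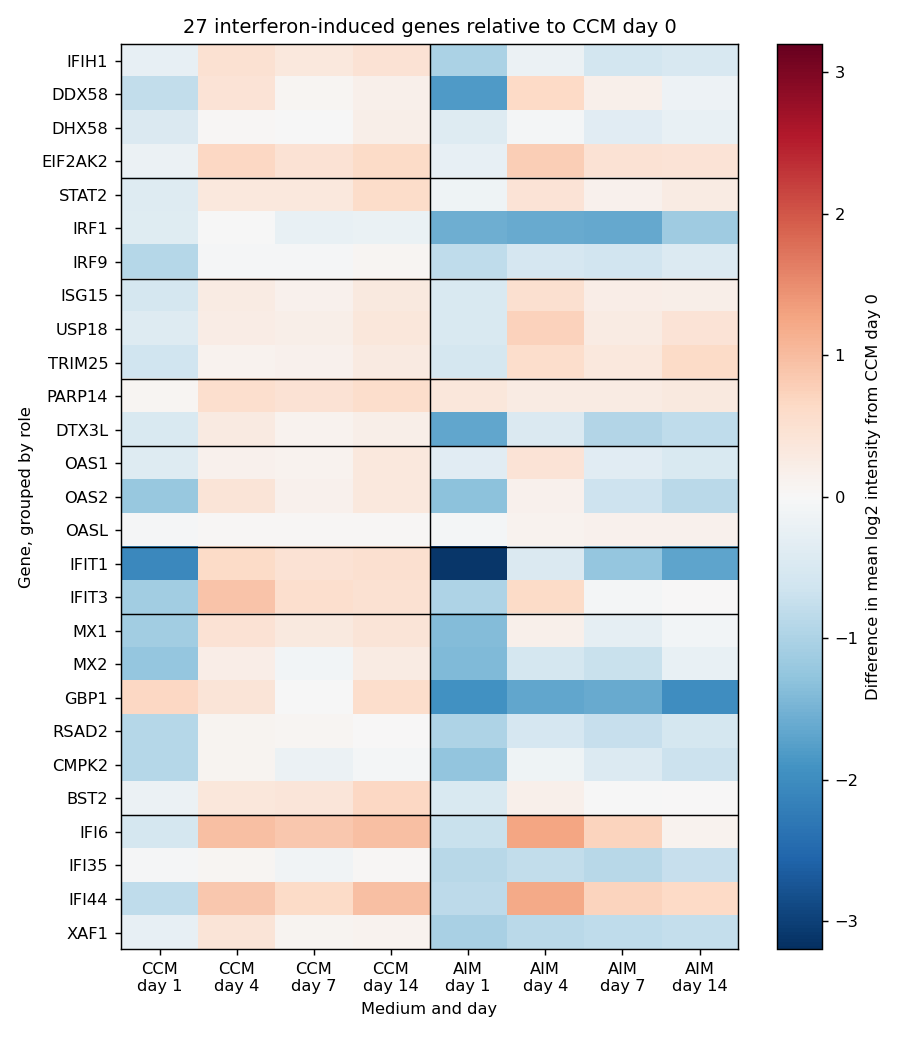
Mean log2 intensity of the 27 tested members minus their mean on day 0 in CCM, by medium and day, with lines between the roles (sensors, transcription factors, ISG15 system, ADP-ribosylation, oligoadenylate synthetases, IFIT family, GTPases and other effectors, others). Blue columns on day 1 mark the drop in both media, by 3.12 for IFIT1 in AIM, and IRF1 and GBP1 stay blue on every day in AIM.

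Between the later days fewer members passed. In CCM no member passed from day 4 to day 7 (0.191% of all tested probe sets passed) or from day 7 to day 14 (1.75%) in limma. In these steps 2 and 3 members had an unadjusted p under 0.05, as did 9.17% and 18.0% of all tested probe sets. In AIM 4 members were lower on day 7 than on day 4 and none higher, against 2.34% and 3.36% of all tested probe sets. There 24 of the 27 differences were below 0, with a median of -0.30 against -0.01 over all tested probe sets, and 16 members had an unadjusted p under 0.05, as did 21.4% of all tested probe sets. IFIT1 (-0.79, adjusted p = 0.129) and IFIT3 (-0.68, adjusted p = 0.0304) were among those that did not pass. OAS2 fell by 0.82 (standard error 0.14, adjusted p = 4.47e-05), OAS1 by 0.79, IFI6 by 0.56 and STAT2 by 0.30. The count depended on the cultures, with 11 lower members without AS FS replicate 1 and 1 or 2 without any other line that could be left out. Without AS FS AIM day 4 replicate 2, the OAS2 call held and OAS1 (-0.57, adjusted p = 0.0331), IFI6 (-0.49, adjusted p = 0.0212) and STAT2 (-0.25, adjusted p = 0.0314) did not pass. From day 7 to day 14 in AIM, IFI6 fell by 0.59 (standard error 0.14, adjusted p = 0.00313), the 1 member to pass, where 1.82% of all tested probe sets were lower. Without any one of 5 culture lines it did not pass.

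Day 4 and day 14 were also set against day 0, in comparisons added after the data were seen that share the day 0 arrays. In CCM 6 members were higher on day 4 and 7 on day 14 and none was lower. Of all tested probe sets 10.3% and 14.7% were higher and 13% and 17% lower. On day 14 these were IFI6 (0.96, standard error 0.14, adjusted p = 3.03e-07), IFI44 (0.95), BST2 (0.65), EIF2AK2 (0.61), STAT2 (0.58), PARP14 (0.55) and TRIM25 (0.29). With some culture line left out, BST2, PARP14 and TRIM25 did not pass. BST2, or tetherin, holds budding virus at the cell surface. In AIM 9 members were higher and 6 lower on day 4 than on day 0, and 5 were higher and 10 lower on day 14. Of all tested probe sets 21.8% were higher and 32.2% lower on day 4, and 21.2% and 30.5% on day 14. GBP1 (-1.66 and -1.98), IRF1 (-1.61 and -1.13), XAF1 (-0.85 and -0.76), IFI35 (-0.80 and -0.74), DTX3L (-0.46 and -0.80) and IRF9 (-0.55 and -0.44) were below day 0 at both times. The DTX3L difference on day 4 did not pass with some culture line left out. IFI6 was above day 0 by 1.27 on day 4, and at day 14 its mean was 8.43 against 8.30 on day 0. Without AS FS AIM day 4 replicate 2, ISG15 (0.37, adjusted p = 0.0381) and IFIT3 (0.45, adjusted p = 0.0554) were no longer higher on day 4 in AIM.

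The effect of the adipogenic medium itself was read from AIM against CCM on the same day. On day 1, 8 of 27 members were lower in AIM and 1 was higher, where 17.6% of all tested probe sets were lower and 10.4% higher. On day 4, 10 were lower and 2 higher, against 29.5% and 19.6%, and with each array centred on its median the split was 9 and 4. On day 7, 11 were lower and none higher, against 27.4% and 17.7%, and on day 14, 16 were lower and 1 higher, against 27.7% and 20.9%. The median difference of the members was -0.10, -0.25, -0.49 and -0.50 on the 4 days, and that of all tested probe sets stayed between -0.05 and -0.01. The 4 comparisons share no array but the same culture lines. GBP1, IRF1, DTX3L, IFIT1, XAF1, IFIH1 and IFI35 were lower in AIM on all 4 days, 7 of the 27 members, as were 9.41% of all tested probe sets. On at least 1 day 19 members were lower, as were 40.5% of all tested probe sets. EIF2AK2, IFI44, IFIT3, ISG15, OASL and PARP14 passed on no day, and 34.2% of all tested probe sets did not either.

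**Figure D4:**
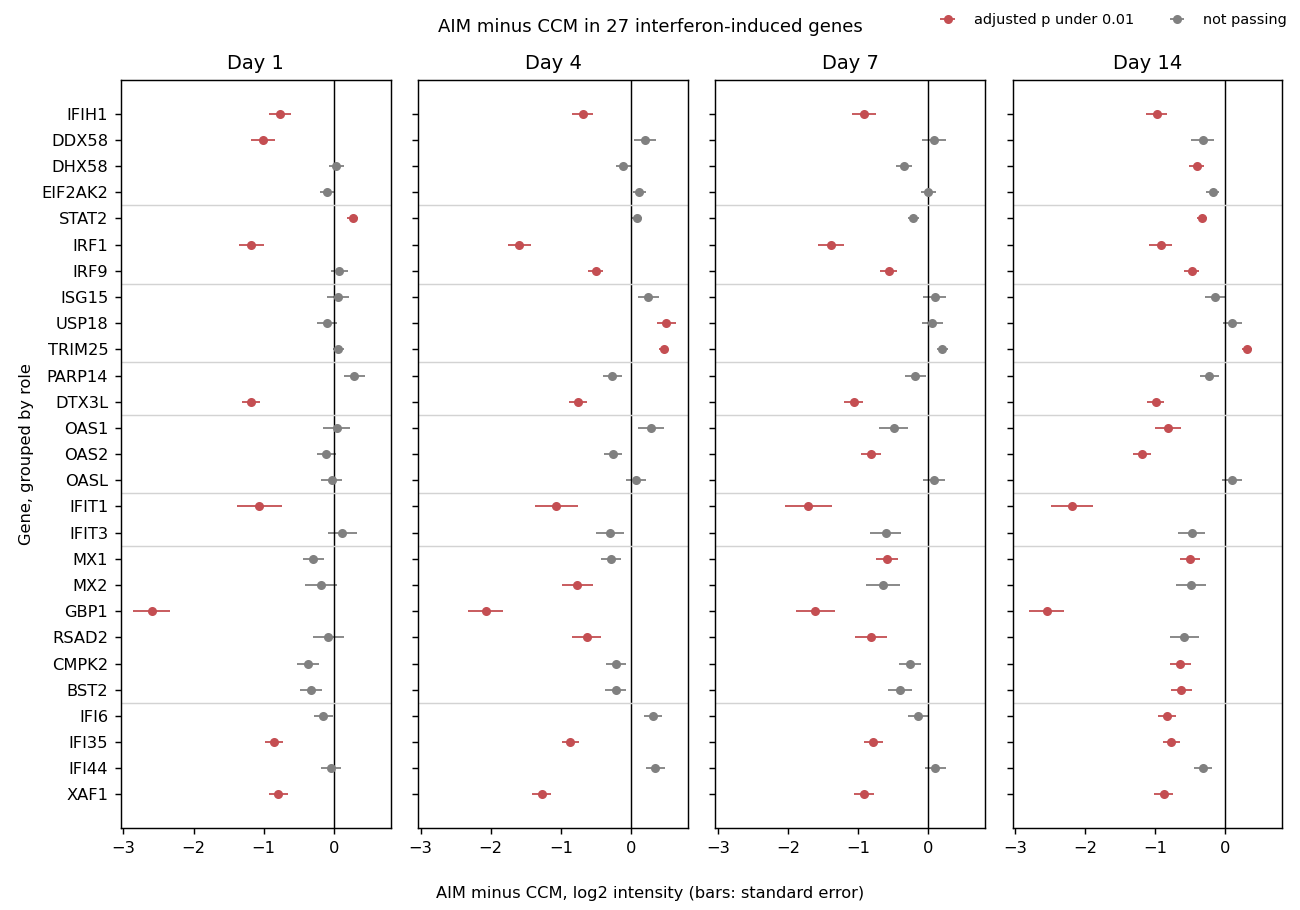
Difference between AIM and CCM in log2 intensity for the 27 tested members on days 1, 4, 7 and 14 (points), with the standard error from limma (bars), grouped by role. Red points passed at an adjusted p under 0.01, and most of them lie below 0: 8, 10, 11 and 16 members on the 4 days.

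Of the transcription factors, IRF1 was lower in AIM by 1.18 (standard error 0.18, adjusted p = 1.31e-06) on day 1 and by 1.59, 1.38 and 0.93 on days 4, 7 and 14. On these later days IRF9 was lower by 0.50, 0.56 and 0.48. STAT2 took both directions. On day 1 its AIM arrays were at 7.56, 7.66 and 7.79 (lowest, median and highest) and its CCM arrays at 7.26, 7.37 and 7.60, a difference of 0.27 (0.08, adjusted p = 0.00416). On day 14 they were at 7.75, 8.13 and 8.35 in AIM and at 8.26, 8.39 and 8.57 in CCM, a difference of -0.33 (0.07, adjusted p = 0.000138). The ranges overlapped slightly on both days. The day 1 difference was not passed in 4 of 7 fits with a culture line left out, at 0.22 (adjusted p = 0.0589) without DL FP replicate 1, nor with the 72 arrays as labelled.

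Of the sensors, IFIH1 was lower in AIM by 0.77, 0.69, 0.92 and 0.98 on the 4 days, with an adjusted p of 4.45e-07 on day 14. DDX58 was lower by 1.01 (standard error 0.17, adjusted p = 6.94e-06) on day 1, and on the later days its differences of 0.20, 0.08 and -0.33 did not pass. DHX58 was lower by 0.41 on day 14, and without DL FP replicate 2 this was -0.36 (adjusted p = 0.0122) and did not pass. The difference of EIF2AK2 lay between -0.18 and 0.12 on the 4 days.

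Within the ISG15 system, TRIM25 and USP18 were higher in AIM. TRIM25 was read on day 4 at 7.05, 7.25 and 7.48 in AIM and at 6.58, 6.83 and 7.00 in CCM, with no overlap, and was higher by 0.47 (standard error 0.07, adjusted p = 3.16e-07). On day 14 it was at 7.04, 7.27 and 7.61 in AIM and at 6.68, 7.02 and 7.23 in CCM, higher by 0.31 with some overlap. USP18 on day 4 was at 5.46, 5.67 and 6.57 in AIM and at 5.08, 5.29 and 5.63 in CCM, higher by 0.51 (0.13, adjusted p = 0.00114). Without AS FS AIM day 4 replicate 2, which held the 6.57, the USP18 difference was 0.37 (adjusted p = 0.0109) and did not pass. ISG15 itself differed by 0.06, 0.25, 0.09 and -0.14 on the 4 days.

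DTX3L, which forms a complex with PARP9 that modifies histones and viral proteins, was lower in AIM by 1.18 (standard error 0.13, adjusted p = 3.14e-09) on day 1 and by 0.75, 1.06 and 0.99 on days 4, 7 and 14. On day 1 the AIM mean of DTX3L was 3.34, close to the background controls (3.33). PARP14, another ADP-ribosyltransferase, depended on the probe set. Its probe set with the highest mean differed by 0.30, -0.26, -0.18 and -0.23 on the 4 days and did not pass. Its second tested probe set was lower in AIM on all 4 days, by 0.90, 1.96, 1.85 and 1.95, and another on days 4, 7 and 14, by 1.19, 1.03 and 1.28. These other 2 also fell from day 0 to day 1, by 1.35 and 0.80 in CCM and by 2.25 and 1.26 in AIM, where that with the highest mean differed by 0.06 and 0.36 and did not pass. For the 12 members with another tested probe set, 54 calls on the medium and on the steps to day 1 and day 4 were made, and all 72 readings of the other probe sets had the sign of the call, 63 of them passing. Over all 8 of these comparisons, called or not, 11 of 120 readings of the other probe sets of the 11 members besides PARP14 had the opposite sign, and 0 of these passed in limma.

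Of the oligoadenylate synthetases, OAS2 was lower in AIM on the later days. It was read at 7.24, 7.61 and 8.09 in AIM and at 7.51, 7.66 and 8.34 in CCM (day 1), then at 8.73, 8.86 and 10.4 in AIM and at 8.79, 9.46 and 9.79 in CCM (day 4), with broad overlap. Later it was at 7.72, 8.33 and 8.87 in AIM and at 8.68, 9.27 and 9.45 in CCM (day 7), then at 7.79, 8.13 and 8.51 in AIM and at 8.60, 9.31 and 10.00 in CCM (day 14). The ranges met slightly on day 7 and were apart on day 14. OAS2 was lower in AIM by 0.82 (standard error 0.14, adjusted p = 6.33e-06) on day 7 and by 1.19 (0.13, adjusted p = 3.26e-10) on day 14. OAS1 was lower by 0.82 (0.18, adjusted p = 0.000213) on day 14, when its arrays overlapped broadly (3.44 to 5.11 in AIM and 3.81 to 6.19 in CCM), and its second tested probe set differed by -0.27 (adjusted p = 0.0609) and did not pass. OASL differed by -0.03, 0.08, 0.09 and 0.09 on the 4 days and did not pass.

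IFIT1 was lower in AIM by 1.06 (standard error 0.32, adjusted p = 0.00812) on day 1 and by 1.06 (0.30, adjusted p = 0.00279) on day 4. It was lower by 1.71 (0.34, adjusted p = 4.49e-05) on day 7 and by 2.19 (0.30, adjusted p = 8.16e-08) on day 14. On day 1 the AIM mean was below the background controls, and the difference measured from them was at least 0.38. The day 1 and day 4 differences did not pass without some culture lines, at -0.80 (adjusted p = 0.106) without AS FP replicate 1 on day 1 and -0.96 (adjusted p = 0.0273) without DL FS replicate 2 on day 4. IFIT3, below the background controls in both media on day 1, differed by -0.30, -0.61 and -0.48 on days 4, 7 and 14 and passed on no day. The IFIT genes are close paralogs, and shared signal between them was not tested.

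GBP1 had the largest difference of all members on days 1, 4 and 14. It was lower in AIM by 2.60 (standard error 0.26, adjusted p = 4.02e-10) on day 1, which is 6.05-fold, by 2.07 and 1.61 on days 4 and 7 and by 2.55 (0.25, adjusted p = 2.78e-11) on day 14, in each of the 4 pools on each day. MX1 was lower by 0.59 and 0.50 on days 7 and 14, MX2 by 0.76 on day 4 and RSAD2 by 0.63 and 0.82 on days 4 and 7. CMPK2 and BST2 were lower by 0.64 and 0.63 on day 14. Without AS FS replicate 1, the RSAD2 differences of -0.52 (adjusted p = 0.0711) and -0.78 (adjusted p = 0.0144) and the MX2 difference of -0.63 (adjusted p = 0.0435) did not pass. The MX1 difference did not pass without DL FP replicate 1 or DL FS replicate 2 on day 7, at -0.51 (adjusted p = 0.0213) without the former, or without AS FP replicate 1, DL FP replicate 1 or DL FP replicate 2 on day 14, at -0.43 (adjusted p = 0.0317) without the first.

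Of the remaining members, XAF1 was lower in AIM by 0.79, 1.27, 0.91 and 0.88 on the 4 days and IFI35 by 0.85, 0.86, 0.78 and 0.77. IFI6 stood at 9.27, 9.58 and 9.87 in AIM and at 8.64, 9.37 and 9.52 in CCM on day 4, and at 7.90, 8.43 and 8.74 in AIM and at 8.62, 9.12 and 9.97 in CCM on day 14. It was lower in AIM by 0.83 (standard error 0.13, adjusted p = 5.26e-07) on day 14, with 1 pool at -0.06 and another at -1.67. IFI44 was at 7.43, 8.04 and 8.65 in AIM and at 7.37, 7.60 and 8.00 in CCM on day 4, and its differences of -0.04, 0.35, 0.10 and -0.32 on the 4 days did not pass.

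Whether the effect of the medium changed with the day was tested as a difference of differences, added after the data were seen. From day 1 to day 4 the difference between AIM and CCM rose for DDX58 by 1.21 (standard error 0.23, adjusted p = 4.64e-05) and for TRIM25 by 0.40 and fell for IRF9 by 0.58, where 13.3% of all tested probe sets passed upward and 17.9% downward. From day 4 to day 14 it fell for IFI6 by 1.15 (0.18, adjusted p = 7.75e-06), OAS1 by 1.11, OAS2 by 0.93, IFI44 by 0.67 and STAT2 by 0.42, 5 members against 5.68% of all tested probe sets, and rose for none, against 7.65%. From day 1 to day 14 it fell for OAS2 by 1.08 (0.19, adjusted p = 8.95e-06), OAS1 by 0.87, IFI6 by 0.69, STAT2 by 0.60 and IRF9 by 0.56, against 17% downward and 15.5% upward. These 3 contrasts share arrays. In at least 1 of them 8 of the 27 members passed (29.6%), as did 42.5% of all tested probe sets. Several of these calls did not pass with some culture line left out. These were TRIM25 and IRF9 from day 1 to day 4, and STAT2, IFI44 and OAS1 from day 4 to day 14. From day 1 to day 14 they were IRF9, IFI6 and OAS1. Without AS FS AIM day 4 replicate 2, IFI44 from day 4 to day 14 was at -0.56 (adjusted p = 0.0234) and did not pass.

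Between the breeds, members passed in 3 of the 9 comparisons of AS with DL, and these were oligoadenylate synthetases. OAS1 was higher in AS on day 4 in AIM by 1.28 (standard error 0.26, adjusted p = 0.00105), where 3.36% of all tested probe sets were higher, on day 7 in AIM by 1.16 (0.29, adjusted p = 0.00534), against 2.19%, and on day 14 in CCM by 1.44 (0.26, adjusted p = 0.000564), against 0.764%. OAS2 was higher in AS on day 14 in CCM by 1.04 (0.18, adjusted p = 0.000331). In the 6 other comparisons 0 members passed in limma. There 3 to 7 of the 27 members had an unadjusted p under 0.05, as did 11.3% to 22.0% of all tested probe sets. Of all tested probe sets, 0.894%, 1.17%, 3.1% and 1.15% passed on days 0, 1, 4 and 7 in CCM and 2.3% and 4.07% on days 1 and 14 in AIM.

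On day 14 in CCM the 4 AS arrays read OAS1 at 6.19, 5.50, 5.88 and 5.70 and the 4 DL arrays at 4.52, 3.81, 4.51 and 4.67. For OAS2 they were 10.00, 9.73, 9.92 and 9.65 in AS and 8.70, 8.60, 8.87 and 8.97 in DL. The breeds did not overlap for either gene. On day 4 in AIM the AS arrays read OAS1 at 4.72, 5.47, 5.70 and 7.43 and the DL arrays at 4.42, 4.13, 4.52 and 5.11, and the value of 7.43 is again AS FS replicate 2. Without that array the difference was 0.85 (adjusted p = 0.025) and did not pass. On day 7 in AIM the AS arrays were at 4.76, 4.99 and 5.34 and the DL arrays at 3.57, 3.63, 4.21 and 3.86, with no overlap.

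The OAS1 difference was above 0 in all 9 comparisons, from 0.53 on day 1 in AIM to 1.44, and that of OAS2 too, from 0.23 on day 14 in AIM to 1.04. All 9 compare the same 4 pools, so their common sign is not independent. Both genes were singled out because they passed in some of them. The 3 tested probe sets of OAS2 all passed on day 14 in CCM (1.04, 1.29 and 1.09). The second tested probe set of OAS1 passed there too (0.82, adjusted p = 0.00435), and on days 4 and 7 in AIM it differed by 0.13 (adjusted p = 0.715) and 0.63 (adjusted p = 0.0246). With 1 culture line left out, none of the 4 calls held in each fit. Without DL FP replicate 2, OAS1 on day 14 in CCM was at 1.26 (adjusted p = 0.0284) and OAS2 at 1.01 (adjusted p = 0.0122). OAS1 and OAS2 are paralogs of the same gene cluster, and shared signal was not tested.

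**Figure D5:**
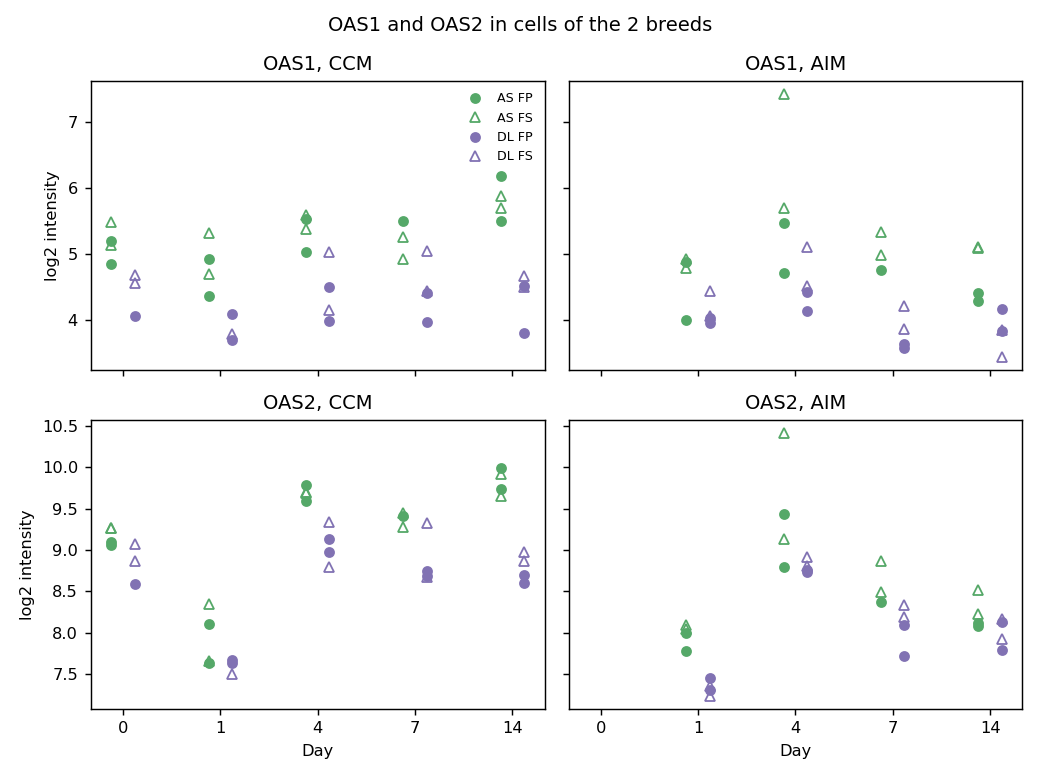
Log2 intensity of OAS1 and OAS2 on each array by day, in CCM and in AIM, for cells of AS (green) and DL (purple) pigs from FP (filled circles) and FS (open triangles). On day 14 in CCM the AS arrays of OAS1 (5.50 to 6.19) lie above those of DL (3.81 to 4.67), and 1 AS FS array stands apart at 7.43 on day 4 in AIM.

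Between the tissues 0 members passed in the 9 comparisons of FP with FS in limma. There 10 member differences had an unadjusted p under 0.05, while 4.10% to 13.9% of all tested probe sets did per comparison. Of all tested probe sets, 0.409%, 0.175%, 0.464%, 0.196% and 0.518% passed in CCM, in the order of the 5 days, and 0.305%, 0.731%, 0.322% and 0.584% on days 1, 4, 7 and 14 in AIM. The smallest adjusted p was that of OAS1 on day 4 in AIM, lower in FP by 1.00 (standard error 0.26, adjusted p = 0.0341). Nor did a member pass in limma in the 17 contrasts that ask whether the breed difference depended on the tissue or whether the medium effect depended on the breed or the tissue, with 18 member differences at an unadjusted p under 0.05, where 0% to 0.704% of all tested probe sets passed. Nearest was IFI6 on day 14, whose medium difference was 1.07 lower in AS than in DL (adjusted p = 0.0243).

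The other genes of the pathway come from lists chosen with earlier results of these data known, and up to 4 of a list are named, by the size of their passing difference between the media. A tested gene of these lists is given by its tested probe set with the highest mean, which need not be the highest of all its probe sets. Of the interferons themselves, 5 of 14 listed were named on the array and 1 was tested. IFNG was read at 1.63 to 1.88, IFNE at 1.58 to 1.99 and IFNK at 2.07 to 2.35, below the background controls, IL29 at 3.54 to 3.82 and IL28B at 4.80 to 5.17, and IL29 passed in no comparison of media or early steps. Of 12 receptors, kinases and STAT factors 5 were tested, and all 5 fell from day 0 to day 1 in both media. Of all tested probe sets, 15.6% were lower in CCM and 21.2% in AIM in this step. In AIM against CCM, the receptor chain IFNAR1 was lower by 0.49, 0.61 and 0.64 on days 4, 7 and 14, the kinase JAK2 by 0.46, 1.70, 1.59 and 1.53 on the 4 days and IL10RB, shared by the receptors of interferon-lambda and interleukin-10, by 0.75 and 0.25 on days 1 and 4. IFNAR2 was higher by 0.42, 0.42 and 0.45 on days 4, 7 and 14. STAT3 passed between the media on no day. Of all tested probe sets, 17.6%, 29.5%, 27.4% and 27.7% were lower in AIM on the 4 days. Higher were 10.4%, 19.6%, 17.7% and 20.9%, and 34.2% passed on no day.

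Upstream of the interferons, 9 of 21 sensors and adaptors were tested, of which 2, 4, 4 and 3 were lower in AIM on days 1, 4, 7 and 14 and none was higher. Of all tested probe sets, 17.6%, 29.5%, 27.4% and 27.7% were lower on these days and 10.4%, 19.6%, 17.7% and 20.9% higher. TLR3, the endosomal sensor of double-stranded RNA, was lower by 2.55, 3.71, 3.46 and 3.45 (standard error 0.22 on day 1 and 0.21 on day 14, adjusted p = 9.73e-12 and 5.97e-17). Its mean on day 4 was 5.70 in AIM and 9.41 in CCM. The adaptor TRAF3 was lower by 0.32, 0.90, 0.97 and 0.70, the factor IRF3 by 0.50, 0.51 and 0.59 on days 4, 7 and 14 and the kinase IKBKE by 0.47 and 0.52 on days 4 and 7. The IRF3 values come from a weaker probe set. Its probe set with the highest mean, at 6.54 to 6.87 over media and days, was not tested. None of the 9 rose from day 1 to day 4 in either medium, where 17.9% of all tested probe sets were higher in CCM and 20.4% in AIM.

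Of 15 genes that restrain interferon signalling 9 were tested. FOXO3, a factor that represses IRF7, was higher in AIM by 1.06, 1.33, 0.85 and 0.57 on the 4 days, IRF2BP2, a corepressor partner of IRF2, by 0.61, 0.77, 0.49 and 0.33, and the phosphatase PTPN1 by 0.23, 0.33 and 0.46 on days 4, 7 and 14. NLRX1, a mitochondrial inhibitor of the RNA sensors, was lower by 0.28, 0.34 and 0.71 on those days. SOCS3, PIAS2, PTPN2, PTPN11 and TRIM24 passed between the media on no day. Of all tested probe sets, 10.4%, 19.6%, 17.7% and 20.9% were higher in AIM on the 4 days. Lower were 17.6%, 29.5%, 27.4% and 27.7%, and 34.2% passed on no day. FOXO3, PTPN1 and IRF2BP2 also act in metabolism and other pathways.

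A further 62 interferon-induced genes outside the 35 were listed, and 31 of them were tested. In AIM 13, 18, 18 and 20 were lower on days 1, 4, 7 and 14 and 0, 1, 2 and 2 higher, with medians of -0.26, -0.45, -0.55 and -0.68. Of all tested probe sets, 17.6%, 29.5%, 27.4% and 27.7% were lower on these days and 10.4%, 19.6%, 17.7% and 20.9% higher. From day 0 to day 1, 16 were lower in CCM and 20 in AIM, and from day 1 to day 4, 19 were higher in CCM and 17 in AIM. The shares of all tested probe sets were 15.6% and 21.2% lower in the first step and 17.9% and 20.4% higher in the second. The death ligand TNFSF10 was lower in AIM by 3.81, 4.18 and 4.53 on days 4, 7 and 14 (on day 1 its AIM mean of 3.00 was below the background controls), the ubiquitin ligase HERC6 by 1.53, 1.14, 1.62 and 2.13, the deoxynucleotide hydrolase SAMHD1 by 0.26, 1.27, 1.17 and 1.41 and the adaptor TRIM14 by 0.61, 1.20, 1.20 and 1.59. Of 9 chemokines induced by interferon 4 were tested. CCL2, which attracts monocytes, was lower in AIM by 1.96, 3.31, 2.73 and 1.69 on days 1, 4, 7 and 14. CX3CL1 was lower by 1.12, 1.25 and 1.69 on days 4, 7 and 14, and CXCL16 by 0.90 and 0.60 on days 1 and 14. CCL5 passed between the media on no day.

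Among 7425 other genes with a tested probe set, those whose 36 group means were most like the mean of the 27 members were LAPTM4B (Pearson r = 0.96), ADAR (0.95), RTP4 (0.95), MMP14 (0.93), IFNAR1 (0.92), TM7SF3 (0.92), SP110 (0.92) and C1R (0.92). These correlations are descriptions over groups that share pools and normalization. ADAR, an RNA-editing enzyme, RTP4 and SP110 are on the list of further interferon-induced genes, and IFNAR1 on that of the receptors. C1R, a complement protease, had means of 9.51 (day 0), of 7.82 in CCM and 7.75 in AIM (day 1) and of 10.3 and 9.61 (day 4). LAPTM4B, a lysosomal membrane protein, was at 8.93, then 8.02 and 7.63, then 9.26 and 8.91 at these times, and MMP14, a membrane-bound metalloproteinase, was at 9.40, then 8.72 and 8.32, then 9.71 and 9.56.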

How the data were processed

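The authors extracted RNA from the cultures, hybridized it to 72 porcine Snowball arrays, scanned them with GCOS 1.1.1 according to the submitters' processing notes, and deposited 1 table of log2 intensity values of 47845 probe sets after background correction, normalization across the arrays and summary by RMA in Expression Console. Genes were named from the platform's annotation, which names 26426 probe sets. Of these names, 167 that differ from the names in the study's additional tables were not used in the other lists. In R (version 4.3.3) with limma (version 3.58.1) and statmod (version 1.5.0), a mean per group was fitted over 68 arrays (4 were left out), with 8 culture lines (1 per breed, tissue and replicate number) as a random block through duplicateCorrelation (correlation 0.026), then eBayes, with Benjamini-Hochberg adjustment over 18335 probe sets within each comparison. The spread is shared by all groups, which is assumed to hold for groups of 1 array. The fit was tested on simulated data. Python (3.11.15) was used for tables (pandas 2.3.3, numpy 2.4.6) and figures (matplotlib 3.10.9).

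The members and gene lists were chosen with earlier results of these data known. All 35 members are accounted for. Those given array by array are the 3 with the widest range of means and those with the largest passing difference in each direction of a comparison. Of other lists, up to 4 genes with the largest passing medium differences are named, and of other genes the 8 most like the members' mean. Where a group mean lay below the background controls, the difference was also taken from these controls. Alternatives varied the filter, scaling, block, variance model, arrays, culture lines and probe sets. The number of arrays limits the precision.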

Additional observations from a re-analysis of the deposited data

Results flagged for a closer look

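In AIM on day 4, AS FS replicate 2 lay far above the other 7 arrays for DDX58, at 9.99 where the next array was at 9.11, for OAS2, at 10.4 against 9.44, and for the mean of the tested members, at 6.74 against 6.15. In CCM on day 7, DL FS replicate 2 read DDX58 at 9.40, and the next of the 7 arrays was at 8.56. In AIM on day 7, DL FP replicate 1 read IFIT1 at 3.56, below the next array at 4.33. Each of these gaps was above Dixon's critical value, which chance exceeds in about 1 of 20 sets. Of the 99 sets examined 5 were flagged, close to that rate. Each set mixes arrays of 4 pools, and the sets overlap, as the mean of the members holds DDX58 and OAS2.

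The difference between AIM and CCM depended on the day for 8 of the 27 members in limma (29.6%), against 42.5% of all tested probe sets. From day 1 to day 4 it rose by 1.21 for DDX58 (adjusted p = 4.64e-05) and by 0.40 for TRIM25 (0.00149), and fell by 0.58 for IRF9 (0.00327). From day 4 to day 14 its change was -1.15 for IFI6 (7.75e-06), -1.11 for OAS1 (0.00167), -0.93 for OAS2 (0.000182), -0.67 for IFI44 (0.00792) and -0.42 for STAT2 (0.00204). From day 1 to day 14 it was -1.08 for OAS2 (8.95e-06), -0.87 for OAS1 (0.00843), -0.69 for IFI6 (0.00262), -0.60 for STAT2 (9.75e-06) and -0.56 for IRF9 (0.00428). With some culture line left out, several of these calls did not pass, as given above.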

How the results depend on the processing

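Of 401 values of 25 counts of members under other settings, 350 were within 1.5 times the reported count. The 191 single calls kept their direction under every setting run, and 238 of their 3076 values no longer passed. With the 72 arrays as labelled, 0 members were higher in AIM on day 1, 2 fell from day 4 to day 7 in AIM, and the medium difference fell for 0 from day 1 to day 4, for 3 from day 4 to day 14 and for 3 from day 1 to day 14. With no filter 1 member fell from day 4 to day 7 in AIM, and the medium difference fell for 3 from day 1 to day 14. With arrays centred on their medians 4 were higher in AIM on day 4, and the median of all probe sets shifted by 0.14 between day 0 and day 4 in AIM. With the mean over a gene's probe sets the medium difference fell for 2 from day 1 to day 4. Without AS FS AIM day 4 replicate 2, a setting chosen after seeing the data, 1 was higher in AIM on day 4, 1 fell from day 4 to day 7 in AIM, and 7 passed between the breeds. The cause of these changes was not tested.

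With 1 culture line left out at a time, the members higher in AIM than in CCM numbered 0 to 1 on day 1 and 1 to 3 on day 4. Those lower from day 4 to day 7 in AIM numbered 1 to 11, those lower from day 7 to day 14 numbered 0 to 1, and those higher on day 14 than day 0 in AIM 3 to 5. The medium difference rose from day 1 to day 4 for 1 to 3 and fell for 0 to 1, fell from day 4 to day 14 for 2 to 4 and from day 1 to day 14 for 2 to 6. Over the 9 comparisons of breeds 0 to 7 passed, with 0 without DL FP replicate 2, and over those of tissues 0 to 1, with 1 without AS FS replicate 1. Without AS FP, DL FP or DL FS replicate 1 a group is empty, and the comparisons that need it (day 7, day 0 or CCM day 1) gave no value. Without the replicate block, 189 of the 191 calls held, and IFIT3 between day 0 and day 4 in AIM (adjusted p = 0.0109) and IFI44 from day 4 to day 14 (0.0105) did not pass. Deviations of cultures that share a number in one pool correlated by 0.018 to 0.068 at the median, so the numbers do not pair the arrays beyond their name.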
